A study of Vitis vinifera with 36 samples.

Results

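Described here is the step from the E-L 34 stage to the E-L 35 stage in berries treated with NAA, read across all genes from 6 of the 36 libraries, 3 at each stage. Berries were those of Vitis vinifera cv. Cabernet Sauvignon, a black wine grape grown in the field. NAA is naphthaleneacetic acid, a synthetic auxin. Clusters received 100 mg/L of it (NAA100) in 0.05% Tween 20, a wetting agent, while still hard and green at the E-L 33 stage. Control clusters received the wetting agent alone, and a further group received 1000 mg/L abscisic acid (ABA1000). E-L numbers are steps of a scale of berry growth, on which berries start to soften at E-L 34, start to colour at E-L 35 (veraison), are part ripe at E-L 36 and harvest-ripe at E-L 38. Treatments were laid out in 3 plots of 50 vines, each replicate held 500 berries, and RNA came from 50 deseeded berries of each, so that a library averages the skin and flesh of many berries. A shift in the number of berries that have passed veraison and a shift in RNA within each berry cannot be told apart in such pools. Groups of the 3 treatments were matched by stage and not by date. The study reports that ABA advanced the onset of ripening and NAA delayed it, so a stage was reached on different dates. In comparisons between treatments, treatment and sampling date cannot be told apart.

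Veraison is the switch from the green, acid berry to the ripening one. At that point photosynthesis genes are turned down, enzymes that loosen the cell wall soften the flesh, thaumatin-like proteins and chitinases build up, and in black cultivars a cluster of MYB regulators turns on the last steps of anthocyanin synthesis. Abscisic acid favours this switch in grape, whereas auxin, which is high in young berries, holds it back. The step from E-L 34 to E-L 35 of NAA-treated berries (the NAA step below) was read for these gene groups, beside the same step in control berries (the control step) and in ABA-treated berries (the ABA step).

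Values are FPKM, that is, fragments scaled to gene length and library size, and a fold change is a difference of means of log2(FPKM + 1), which understates the change of genes with low FPKM. A gene was called when its adjusted p was at most 0.01 and its log2 fold change at least 1 in size, by limma over the 17598 of 25280 genes that had at least 1 FPKM in at least 3 of all libraries. Counts of list members below are over members that passed this filter. In the exact permutation test of 3 against 3 libraries the smallest p is 0.1. The tests below therefore rest on the spread shared over 12 groups, with 24 residual degrees of freedom. Replicates varied most in the NAA E-L 35 group, with a median SD over genes of 0.161 on the log2 scale. In the other groups this SD was 0.097 to 0.153, so the shared spread may be too small for the NAA step. The 6 libraries had summed FPKM of 489454 to 536978 and 3830 to 4504 genes at 0. Their read numbers were estimated to be within a factor of 1.081 of each other. The estimate is the most frequent ratio of FPKM between libraries, over genes under 1 FPKM. Ratios far from equal were left out beforehand, so a large difference in read number would not have shown.

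E-L 35 replicate 3 stood apart. Its log2 values correlated at 0.932 to 0.944 with the E-L 34 libraries, against 0.961 to 0.971 for E-L 35 replicates 1 and 2. Seed genes were highest in this library too, although seeds had been removed. The 10 genes of seed storage and oil body proteins summed to 1702 FPKM in it, to 106 and 151.5 FPKM in replicates 1 and 2, and to between 78.6 and 91.4 FPKM at E-L 34. The 2S albumin gene (VIT_219s0177g00090), a storage protein of the seed, was listed at 0 in every E-L 34 library and at 0.101, 2.92 and 938 FPKM at E-L 35. Oleosin 1 (VIT_216s0013g00880), a protein of seed oil bodies, was listed at 0 at E-L 34 and at 0, 12.7 and 56.4 FPKM at E-L 35, so that replicate 2 held some of it too. Elsewhere in the series the sum passed 500 FPKM in 2 libraries, both of ABA-treated berries. Of the 10 seed genes, 1 was called higher in the NAA step, the P24 oleosin gene (VIT_214s0066g00700), with 4.16, 3.39 and 1.17 FPKM at E-L 34 and 11.9, 23.01 and 106 FPKM at E-L 35. Without replicate 3 it was called too, with a log2 fold change of 2.265. In the control at E-L 34 the P24 oleosin was at 31.98, 21.68 and 30.04 FPKM, where the 2S albumin was at most 0.0507 FPKM. Its level thus did not follow that of the 2S albumin there. Replicate 3 was the highest E-L 35 library for 156 of the 218 genes called higher and the lowest for 148 of the 362 called lower. The like shares over all genes were not taken, so neither count is read as a mark of this library. Without replicate 3, 150 genes were called higher and 317 lower, of which 140 and 249 were among those called with it. The part of seed RNA in each result was not tested beyond that. Where the counts of a list in the NAA step changed without replicate 3, the counts without it stand beside them, and calls of named genes that were lost when another single library was left out are given too.

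In the NAA step 218 genes (1.24% of those tested) were called higher and 362 (2.06%) lower. At an unadjusted p under 0.05 there were 44.1% of all genes, against which the like counts of list members below are to be read. In 214 of the 218 and 353 of the 362, no E-L 35 library overlapped an E-L 34 library, where over all genes tested 10.7% had every E-L 35 library higher and 32.3% every one lower. The whole table leaned downwards, with a median log2 fold change of -0.14. After median-of-ratios scaling, which set this median to 0.00, 275 genes were called higher and 182 lower, which turned the balance from 37.6% higher calls to 60.2%. Quantile normalization gave 55.1% and a floor on mean FPKM 60.6%, whereas rescaling to TPM gave 23.8%. All 218 rises and 182 of the 362 falls were called under median-of-ratios scaling as well. A fit of the 6 libraries alone, which uses only their own spread and has far fewer degrees of freedom, called 25 genes higher and 19 lower. Changes below are given on the deposited scale and are to be read against the median of -0.14.

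**Figure D1:**
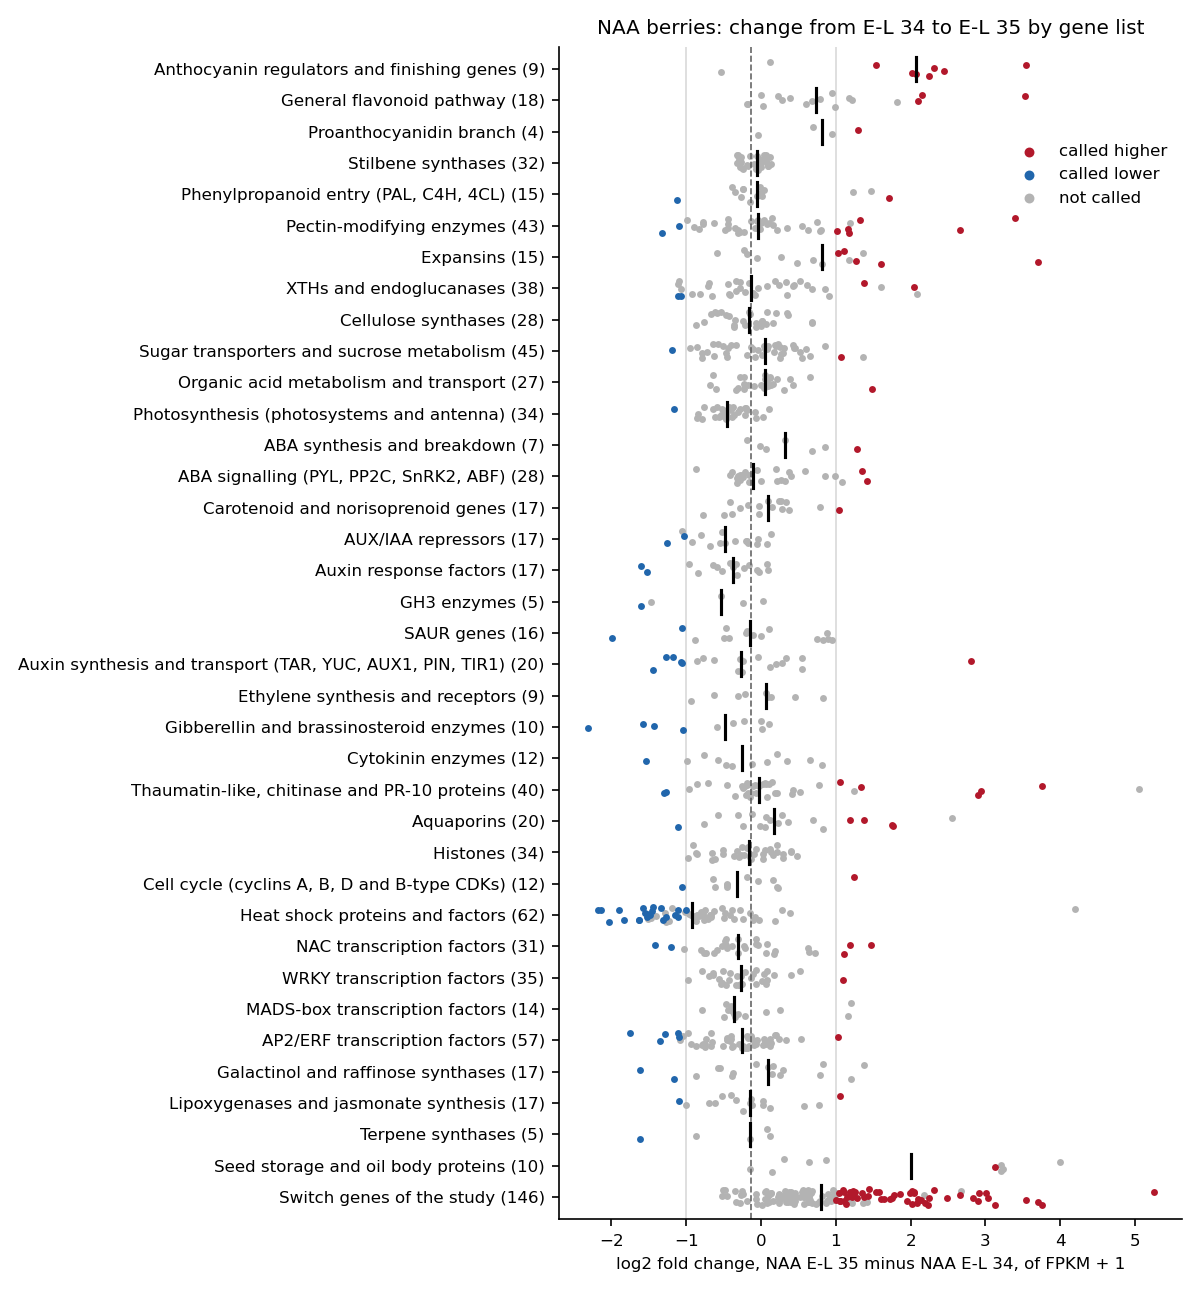
Log2 fold change (x axis, of FPKM + 1) from E-L 34 to E-L 35 in NAA-treated berries for each tested member of the gene lists, with the number tested in brackets. Red points were called higher and blue points lower, black bars are list medians, the dashed line is the median of all 17598 genes (-0.14) and the pale lines mark a log2 fold change of 1 in either direction. The anthocyanin genes lie furthest to the right with a median of 2.08, and the heat shock genes furthest to the left with a median of -0.92.

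The sharpest rises were those of proteins that fill the ripening berry. VviTL1 (VIT_202s0025g04330, chromosome 2, 3821899 to 3822797, plus strand), a thaumatin-like protein that becomes one of the main soluble proteins of ripe berries, was at 21.03, 21.5 and 11.85 FPKM at E-L 34 and 209, 511 and 3258 FPKM at E-L 35 (log2 fold change 5.25, SE 0.53, adjusted p = 5.23e-08). All E-L 35 libraries were above all E-L 34 libraries, but they spread widely among themselves, with replicate 3 the highest. Without replicate 3 the log2 fold change was 4.145. A class IV chitinase (VIT_205s0094g00340, chromosome 5, 23657612 to 23659290, minus strand) was at 158, 145 and 79.3 FPKM at E-L 34 and 1448, 1280 and 2478 FPKM at E-L 35 (log2 fold change 3.755, SE 0.25, adjusted p = 5.17e-11). Its neighbour VIT_205s0094g00350, annotated as a chitinase, was at 17.9, 19.8 and 10.8 FPKM at E-L 34 and 121, 127 and 135 FPKM at E-L 35, and the PR-4 gene VIT_214s0081g00030 at 64.8, 65.4 and 43.9 FPKM at E-L 34 and 445.5, 409 and 443 FPKM at E-L 35. Both of these differed little among the E-L 35 libraries, replicate 3 included. Chitinases and PR proteins are defence proteins that also mark berry ripening. The list of thaumatin-like, chitinase and PR-10 proteins did not hold VviTL1, and the largest log2 fold change in it was 5.06. Of its 40 tested genes 5 were called higher and 2 lower, and 33 did not pass. The median log2 fold change was -0.03, so the rise in this list was that of few members. Without replicate 3 the counts were 3 and 2. Over all genes, 29 with a log2 fold change above 2 were not called, and in 15 of them E-L 35 replicate 3 was the highest of the 6 libraries.

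Of these transcripts, VviTL1 and the class IV chitinase were already high in control berries at E-L 34. PR-4 was at 185, 136 and 238 FPKM in the control at E-L 34, and VIT_205s0094g00350 at 49.97, 26.4 and 86.2 FPKM. For both, these values were below every NAA library at E-L 35. VviTL1 was at 1736 ± 719.5 FPKM in the control at E-L 34 and 3394 ± 241 FPKM at E-L 35 (SD, n = 3 here and in all such values), and the class IV chitinase at 1633 ± 519 FPKM and 4327 ± 752 FPKM. The NAA step exceeded the control step by 4.21 on the log2 scale for VviTL1 (adjusted p = 0.000466) and by 2.31 for the chitinase (adjusted p = 0.000115). The chitinase mean after NAA was 1736 ± 648.5 FPKM at E-L 35.

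Some cell wall genes rose as well. Expansins loosen the wall without cutting it, and 5 of 15 tested were called higher and none lower by limma, with a median log2 fold change of 0.81 and 8 of 15 under an unadjusted p of 0.05 beside 44.1% of all genes. The beta-expansin VIT_215s0021g02700, chromosome 15, 13735749 to 13737845, plus strand (expansin-B2) was at 12.5, 16.6 and 15.4 FPKM at E-L 34 and 179, 201 and 234 FPKM at E-L 35 (log2 fold change 3.699, SE 0.23, adjusted p = 1.51e-11). Its 3 libraries at E-L 35 were close together and far above all those at E-L 34. Expansin-A8 (VIT_213s0067g02930), the most abundant of the called members, was at 367, 423 and 399.7 FPKM at E-L 34 and 1271, 613 and 1104 FPKM at E-L 35 (log2 fold change 1.26). Here replicate 2 was well below replicates 1 and 3. Without replicate 3, 2 expansins were called. Expansin-A8 was lost without it (adjusted p = 0.0209) and without any of 3 other libraries (log2 fold changes of 1.054 to 1.27).

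Among pectin-modifying enzymes, which cut or de-esterify the pectin that glues cells together, 6 of 43 were called higher and 2 lower, and the median log2 fold change was -0.04. The polygalacturonase VviPG1 (VIT_208s0007g08330, chromosome 8, 21672718 to 21675815, plus strand) was at 38.7, 31.6 and 11.2 FPKM at E-L 34 and 150.3, 91.8 and 283.5 FPKM at E-L 35 (log2 fold change 2.66, SE 0.33, adjusted p = 1.21e-06). Pectate lyase 5 (VIT_217s0000g09810, chromosome 17, 11675130 to 11676755, minus strand) was at 10.7, 16.1 and 12.2 FPKM at E-L 34 and 187, 71.4 and 222 FPKM at E-L 35 (log2 fold change 3.39, SE 0.38, adjusted p = 2.64e-07). In both, the lowest E-L 35 library, replicate 2, was still above the highest E-L 34 library. A pectinesterase (VIT_213s0047g00230) rose from 2.19, 1.42 and 3.46 to 6.18, 5.38 and 10.65 FPKM, whereas another (VIT_210s0116g00590) fell from 8.78, 8.599 and 12.5 to 4.58, 3.31 and 2.32 FPKM. Without replicate 3 the counts were 4 higher and 1 lower, and after median-of-ratios scaling 6 and 1.

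Xyloglucan endotransglucosylases (XTHs) cut and rejoin the hemicellulose that ties cellulose fibres together. Of 38 XTH and endoglucanase genes 2 were called higher and 2 lower, against 3 and 1 without replicate 3 and 3 and none after median-of-ratios scaling. The XTH VIT_206s0061g00550 was at 495.5, 561 and 322.5 FPKM at E-L 34 and 2157, 1343 and 2203 FPKM at E-L 35 (log2 fold change 2.05). A mannanase (VIT_218s0089g00160), which cuts another hemicellulose, was at 0.372, 0.875 and 1.103 FPKM at E-L 34 and 13.5, 7.601 and 21.9 FPKM at E-L 35 (log2 fold change 3.01). No cellulose synthase gene among 28 was called by limma in either direction, and 12 had an unadjusted p under 0.05, a share (12 of 28) no larger than the 44.1% of all genes. None was called after median-of-ratios scaling either.

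For VviPG1, pectate lyase 5 and the mannanase no rise was called in the control. VviPG1 was at 276 ± 77.2 FPKM in the control at E-L 34 and 232 ± 48.98 FPKM at E-L 35, pectate lyase 5 at 271 ± 85.2 FPKM and 329 ± 13.25 FPKM, and the mannanase at 19.3 ± 6.69 FPKM and 14.8 ± 10.1 FPKM. Differences between the NAA and the control step were 2.89 (VviPG1), 3.07 (pectate lyase 5) and 3.54 (mannanase) on the log2 scale, with adjusted p of 0.000174, 0.000393 and 6.71e-05. At E-L 36 after NAA, VviPG1 was at 47.4 ± 9.79 FPKM and pectate lyase 5 at 34.1 ± 11.96 FPKM, both lower again. Expansin-B2 was at 2465 ± 175 FPKM and the class IV chitinase at 6387 ± 605 FPKM, both higher still.

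**Figure D2:**
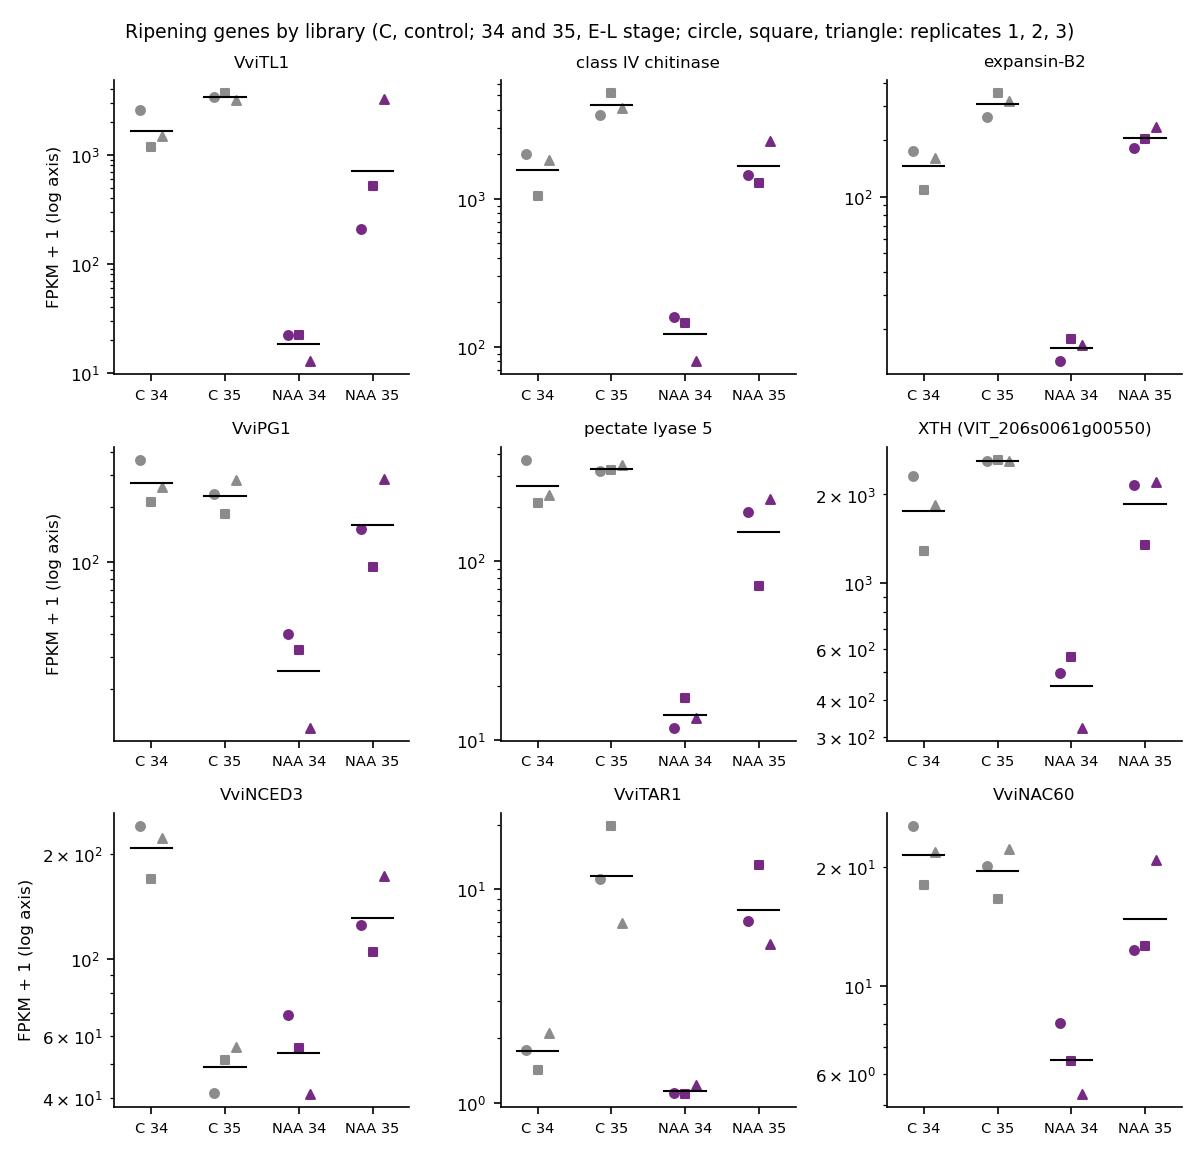
FPKM + 1 (y axes, log scale) of 9 genes in control (C, grey) and NAA-treated (purple) berries at both stages, with one point per library (circle, square and triangle for replicates 1, 2 and 3) and a bar at the mean of the log values. In every panel the 3 NAA libraries at E-L 35 lie above the 3 at E-L 34. VviNCED3 falls in the control from 209 to 48.5 FPKM on average while it rises in NAA-treated berries.

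Aquaporins are water channels, and 4 of 20 were called higher and 1 lower. The tonoplast aquaporin TIP1-3 (VIT_213s0019g00330) was at 45.85, 46.45 and 34.4 FPKM at E-L 34 and 91.7, 103 and 320.3 FPKM at E-L 35, and TIP1-1 (VIT_208s0007g04780) at 91.2, 85.7 and 53.7 FPKM at E-L 34 and 159, 137 and 349 FPKM at E-L 35, with replicate 3 far above the others in both. Without replicate 3, 1 aquaporin was called higher and none lower, and after median-of-ratios scaling 4 and none. TIP1-1 was among those lost without replicate 3 (log2 fold change 0.97). Of 45 genes of sugar transport and sucrose metabolism, 1 was called higher, a hexose transporter (VIT_218s0122g00850, 125.5, 118 and 95.3 FPKM at E-L 34 and 217, 205 and 294 FPKM at E-L 35), and 1 lower, a sucrose synthase (VIT_217s0053g00700, 3.07, 2.902 and 3.803 FPKM at E-L 34 and 1.05, 0.826 and 0.709 FPKM at E-L 35). The rise of TIP1-3 and that of the transporter were not called without replicate 3 (log2 fold changes 1.199 and 0.91) nor without E-L 34 replicate 3 (1.63 and 0.95). Of 27 genes of organic acid metabolism 1 was called, a tonoplast dicarboxylate transporter (VIT_200s0187g00130), which carries malate into the vacuole, with 6.41, 7.27 and 6.09 FPKM at E-L 34 and 21.6, 21.6 and 17.8 FPKM at E-L 35.

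Most anthocyanin genes came on from very low levels. The list holds the MYB regulators of berry colour and the genes that finish, methylate, acylate and move the pigment, and 7 of its 9 tested members were called higher (median log2 fold change 2.08), against 2 of 9 in the control step, where 0.977% of all genes were called higher and 1.72% lower. UFGT, the glucosyltransferase of the pathway, did not pass the filter on low values. VviMYBA1 (VIT_202s0033g00410, chromosome 2, 14239584 to 14240983, minus strand) was at 0.119, 0.11 and 0 FPKM at E-L 34 and 0.615, 1.48 and 6.62 FPKM at E-L 35 (log2 fold change 1.54). VviMYBA2 (VIT_202s0033g00390, chromosome 2, 14179728 to 14180733, minus strand) was at 1.14, 0.662 and 0.133 FPKM at E-L 34 and 3.67, 3.08 and 24.96 FPKM at E-L 35 (log2 fold change 2.31, adjusted p = 9.93e-05), and VviMYBA3 (VIT_202s0033g00450) at 0.0707, 0 and 0.033 FPKM at E-L 34 and 1.27, 1.18 and 13.9 FPKM at E-L 35 (log2 fold change 2.02, adjusted p = 0.000658). These genes lie side by side on chromosome 2 and resemble each other, so reads may be shared among them. VviMYBA8 was at 0 in 5 of the 6 libraries and was not called.

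VviGST4 (VIT_204s0079g00690, chromosome 4, 11504521 to 11507410, minus strand), a glutathione S-transferase that moves anthocyanins to the vacuole, was at 0.74, 0.147 and 0.936 FPKM at E-L 34 and 4.49, 5.94 and 159 FPKM at E-L 35 (log2 fold change 3.54, SE 0.69, adjusted p = 0.000358). A transporter of the TRANSPARENT TESTA 12 type (VIT_216s0050g00910, named after its values were seen) was at 1.42, 1.37 and 2.54 FPKM at E-L 34 and 3.91, 4.87 and 74.2 FPKM at E-L 35, and a methyltransferase annotated for flavonoids (VIT_201s0010g03510) at 0.583, 0.0902 and 0.543 FPKM at E-L 34 and 1.31, 2.096 and 59.6 FPKM at E-L 35. In each, replicates 1 and 2 of E-L 35 were above E-L 34 by a few FPKM, and replicate 3 was far higher. Without replicate 3, 3 of the 9 were called, with a median log2 fold change of 0.95. Of those named, VviMYBA2 (1.455), VviMYBA3 (1.103) and VviGST4 (1.975) passed without it, and VviMYBA1 (0.897), the TRANSPARENT TESTA 12 type (0.98) and the methyltransferase (0.95) did not. The methyltransferase was also lost without E-L 34 replicate 2 (2.28) or 3 (2.53).

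The summed FPKM of this list was 16.9, 20.8 and 369.6 in the E-L 35 libraries against 3.90 to 7.01 at E-L 34. In the control it was 62.2 to 106 at E-L 34 and 194.9 to 488 at E-L 35, so that replicates 1 and 2 of NAA-treated berries at E-L 35 were below every control library at E-L 34. No anthocyanin gene had a called difference between the NAA and the control step by limma (1.19% of all genes higher and 1.29% lower), and none of the 9 had an unadjusted p under 0.05 either, beside 33.3% of all genes. After NAA the sum was 478 to 559 at E-L 36.

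Upstream genes were also highest in replicate 3. Chalcone synthase opens flavonoid synthesis, and CHS2 (VIT_205s0136g00260, chromosome 5, 13597238 to 13599692, plus strand) was at 2.63, 3.25 and 2.68 FPKM at E-L 34 and 12.9, 18.15 and 325 FPKM at E-L 35 (log2 fold change 3.53, SE 0.602, adjusted p = 8.16e-05). Chalcone synthase has close copies, among which reads may be shared. Leucoanthocyanidin dioxygenase (VIT_202s0025g04720), which makes the coloured anthocyanidin, was at 7.94, 8.71 and 8.17 FPKM at E-L 34 and 23.3, 21.8 and 123 FPKM at E-L 35 (log2 fold change 2.15, adjusted p = 7.09e-05). Of 18 general flavonoid genes 3 were called higher and none lower by limma (9 at an unadjusted p under 0.05, beside 44.1% of all genes), and 4 were called without replicate 3. Leucoanthocyanidin reductase 1 (VIT_201s0011g02960), which leads to proanthocyanidins (tannins) instead, was at 1.28, 0.953 and 0.788 FPKM at E-L 34 and 4.22, 3.08 and 4.499 FPKM at E-L 35 and was the 1 called gene of 4 in that branch. In the control it was at 1.59 ± 0.341 FPKM and 1.23 ± 0.448 FPKM, and the steps differed by 1.52 on the log2 scale (adjusted p = 5.57e-05). None of 32 stilbene synthase genes, close tandem copies among which reads may be shared, was called or had an unadjusted p under 0.05 in limma. At the entry to the pathway 1 phenylalanine ammonia-lyase gene rose (VIT_213s0019g04460, 0.525, 0.325 and 1.02 FPKM at E-L 34 and 1.26, 1.66 and 23.1 FPKM at E-L 35) and 1 fell (VIT_211s0016g01520, 2.52, 3.33 and 2.72 FPKM at E-L 34 and 0.523, 1.08 and 0.725 FPKM at E-L 35), and the rise was not called without replicate 3 (log2 fold change 0.62) nor without any 1 of the E-L 34 libraries (1.582 to 1.886).

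**Figure D3:**
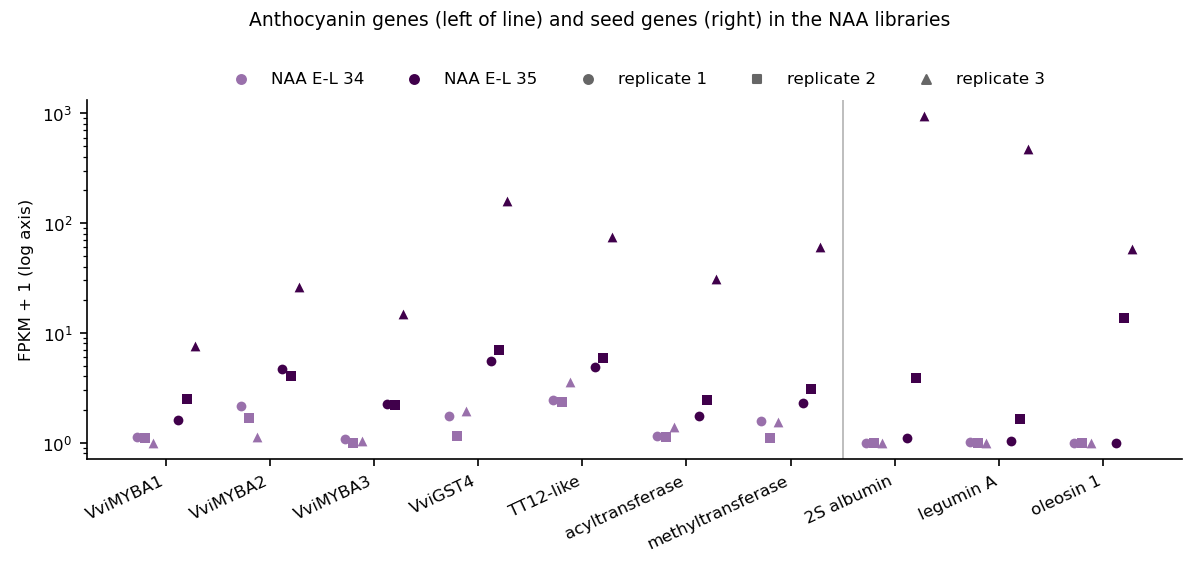
FPKM + 1 (y axis, log scale) of 7 anthocyanin genes (left of the line) and 3 seed genes (right) in the 6 NAA libraries, with E-L 34 in light and E-L 35 in dark purple and a different marker for each replicate. The triangle of E-L 35 replicate 3 is the highest point for every gene, with 158.9 FPKM of VviGST4 and 938 FPKM of the 2S albumin. For the anthocyanin genes the circles and squares of E-L 35 lie above all E-L 34 points as well.

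Photosynthesis genes, which mark green tissue, were lower on balance with few calls. Of 34 genes of photosystems and antenna 1 was called lower, an antenna protein (VIT_212s0055g01110, 25.5, 25.6 and 30.8 FPKM at E-L 34 and 13.5, 12.3 and 9.27 FPKM at E-L 35), and none higher by limma, with a median log2 fold change of -0.46. In 19 of the 34 every E-L 35 library was below every E-L 34 library, beside 32.3% of all genes. The summed FPKM of the list was 3179 to 3704 at E-L 34 and 2278 to 3125 at E-L 35, with replicate 3 the lowest and no overlap between the stages. After median-of-ratios scaling no photosynthesis gene was called and the median was -0.29. The control was lower at both stages (1933 to 2585, then 1044 to 1774). The next step after NAA, from E-L 35 to E-L 36, brought the sum to 164 to 272 FPKM with 29 of the 34 called lower, beside 8.94% of all genes called higher and 18.7% lower.

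In the abscisic acid pathway VviNCED3 (VIT_219s0093g00550, chromosome 19, 17645348 to 17647649, plus strand), which catalyses the committed step of ABA synthesis, was at 67.8, 54.5 and 39.98 FPKM at E-L 34 and 124, 103 and 172 FPKM at E-L 35 (log2 fold change 1.28, SE 0.298, adjusted p = 0.00178). In the control it fell at the same step, from 209 ± 36.5 FPKM to 48.5 ± 7.47 FPKM (log2 fold change -2.08, adjusted p = 1.73e-05). The NAA and the control step differed by 3.36 on the log2 scale (adjusted p = 1.75e-05). The rise itself was not called without E-L 35 replicate 3 (log2 fold change 1.08, adjusted p = 0.0167) nor without E-L 34 replicate 3 (1.08). VviNCED1 and VviNCED2 were lower in FPKM and were not called, with 0.915, 0.918 and 3.597 FPKM of VviNCED1 and 12.1, 8.67 and 28.3 FPKM of VviNCED2 at E-L 35 against 0.755, 0.18 and 0.382 and 10.65, 8.11 and 7.58 FPKM at E-L 34. Of 7 genes of ABA synthesis and breakdown VviNCED3 was the 1 called. Of 28 ABA signalling genes 2 were called higher, a receptor (VIT_202s0012g01270, 4.36, 6.46 and 4.51 FPKM at E-L 34 and 10.99, 8.14 and 32 FPKM at E-L 35) and a protein phosphatase of the PP2C class that holds the pathway off (VIT_216s0050g02680, 1.63, 1.95 and 1.74 FPKM at E-L 34 and 4.66, 3.13 and 16.1 FPKM at E-L 35), and neither was called without replicate 3 (log2 fold changes 0.79 and 0.805) nor the second without E-L 34 replicate 3 (1.403). VviABF (VIT_204s0069g01150), a bZIP factor of ABA responses, was at 10, 11.7 and 11.99 FPKM at E-L 34 and 8.04, 7.33 and 12.5 FPKM at E-L 35 and was not called. The ninja-family gene VIT_200s0216g00060, whose Arabidopsis relatives bind an ABA-response factor, was at 1.02, 0.543 and 0.284 FPKM at E-L 34 and 3.66, 4.302 and 16.98 FPKM at E-L 35 (log2 fold change 2.27, adjusted p = 0.000154). It fell in the control, from 15.5 ± 1.299 FPKM to 3.17 ± 1.53 FPKM, which made it the largest called excess of the NAA over the control step among genes of at least 10 FPKM (4.31, adjusted p = 3.82e-05).

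The carotenoid list, whose products are also the source of ABA and of norisoprenoid aromas, had 1 called gene of 17, zeta-carotene desaturase (VIT_214s0030g01740), with 48.4, 50.1 and 41.4 FPKM at E-L 34 and 119, 75.3 and 101 FPKM at E-L 35 (log2 fold change 1.04). It was just above the size for a call and fell under it without E-L 34 replicate 3 (0.96) or E-L 35 replicate 1 (0.892). VviCCD4b (VIT_202s0087g00930), which cleaves carotenoids to norisoprenoids, was at 20.95, 20.6 and 20.9 FPKM at E-L 34 and 42.6, 35.2 and 13.4 FPKM at E-L 35. Replicates 1 and 2 were above E-L 34 and replicate 3 below it, and the gene was not called with or without replicate 3 (adjusted p = 0.341 and 0.0167). VviPSY1 (VIT_204s0079g00680), annotated as a phytoene synthase, was at 16, 16.04 and 17.8 FPKM at E-L 34 and 26.3, 19.7 and 16.3 FPKM at E-L 35 and VviGATA26 (VIT_200s2393g00010), a GATA-type transcription factor, at 12.7, 12.9 and 15.4 FPKM at E-L 34 and 12.1, 11.5 and 9.88 FPKM at E-L 35, and neither was called.

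AUX/IAA proteins repress the auxin response and are themselves induced by auxin, and 2 of 17 were called lower and none higher by limma (8 at an unadjusted p under 0.05, beside 44.1% of all genes), with a median log2 fold change of -0.48. IAA13 (VIT_205s0049g01970) was at 19.7, 20.8 and 25.9 FPKM at E-L 34 and 10.4, 12.2 and 8.54 FPKM at E-L 35 and IAA27 (VIT_211s0016g03540) at 33.5, 32.1 and 45.8 FPKM at E-L 34 and 16.6, 23.2 and 8.23 FPKM at E-L 35. Without replicate 3, and likewise after median-of-ratios scaling, no AUX/IAA gene was called by limma. IAA27 was called at an adjusted p of 0.00708 and was lost without any 1 of 5 of the 6 libraries (-0.87 to -1.349). IAA13 was lost without E-L 34 replicate 3 too (-0.912). In the control it went from 4.79 ± 0.882 FPKM to 7.299 ± 0.367 FPKM, and the steps differed by -1.56 (adjusted p = 0.000138). The most abundant AUX/IAA gene, VIT_209s0002g05150, was at 406, 445 and 420 FPKM at E-L 34 and 518, 447.5 and 158 FPKM at E-L 35 and was not called, with replicate 3 alone below E-L 34. VIT_205s0020g04670, which the study names and which was added after its values were seen, was at 144, 150.2 and 161 FPKM at E-L 34 and 190.1, 173.0 and 35.4 FPKM at E-L 35 and was not called, again with replicate 3 alone below E-L 34.

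Auxin response factors bind the promoters of auxin-regulated genes, and 2 of 17 were called lower. ARF4 (VIT_206s0004g03130) was at 19.4, 18.8 and 26.4 FPKM at E-L 34 and 8.74, 8.86 and 3.88 FPKM at E-L 35 (log2 fold change -1.52, adjusted p = 7.93e-05) and ARF18 (VIT_215s0046g00290) at 11.7, 13.2 and 20.3 FPKM at E-L 34 and 5.41, 6.41 and 1.899 FPKM at E-L 35 (log2 fold change -1.603, adjusted p = 0.00276). ARF18 was not called without E-L 35 replicate 3 (-1.19) nor without E-L 34 replicate 3 (-1.381). In 11 of the 17 no E-L 35 library reached the lowest E-L 34 library, as in 32.3% of all genes. GH3 enzymes tie auxin to amino acids. Of 5 tested, 1 was called lower (VIT_207s0005g00090, 8.84, 7.64 and 13.7 FPKM at E-L 34 and 2.32, 4.24 and 1.54 FPKM at E-L 35). VviGH3 (VIT_203s0091g00310) was far more abundant, at 312, 258 and 250.5 FPKM at E-L 34 and 379.9, 353 and 160.5 FPKM at E-L 35, with overlapping stages and no call. Of 16 SAUR genes, which are early auxin targets, 2 were called lower, among them VIT_209s0002g00670 with 11.45, 11.5 and 18.15 FPKM at E-L 34 and 1.66, 4.24 and 2.36 FPKM at E-L 35 (log2 fold change -1.998, adjusted p = 0.000203). The list did not go one way, since 1 was called higher and 2 lower without replicate 3, and 2 higher and 1 lower after median-of-ratios scaling.

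Of 20 genes of auxin synthesis and transport 5 were called lower and 1 higher, against 6 and 1 without replicate 3 and 3 and 1 after median-of-ratios scaling. Auxin efflux carriers pump auxin out of cells, and 3 of them fell. VIT_204s0023g00320 was at 16.75, 14.3 and 16.8 FPKM at E-L 34 and 5.79, 6.51 and 3.71 FPKM at E-L 35, VIT_217s0000g02420 at 18.7, 17.6 and 20.8 FPKM at E-L 34 and 9.37, 7.66 and 5.38 FPKM at E-L 35, and VIT_208s0040g01230 at 3.89, 4.12 and 3.45 FPKM at E-L 34 and 1.39, 1.22 and 0.794 FPKM at E-L 35. In all 3 the stages did not overlap and the calls held without replicate 3. The gene that rose was VviTAR1 (VIT_200s0225g00230, chromosome Un, 14754246 to 14757498, minus strand, with Un for unplaced sequence), which makes the precursor from which auxin is formed. It was at 0.104, 0.0965 and 0.213 FPKM at E-L 34 and 6.07, 11.97 and 4.54 FPKM at E-L 35 (log2 fold change 2.81, SE 0.28, adjusted p = 5.23e-08), with replicate 3 the lowest of the E-L 35 libraries. The control step was of like size (2.72, adjusted p = 5.86e-07), and the 2 steps were not called different (0.09, adjusted p = 0.906). In ABA-treated berries the step was 0.76, and the NAA step exceeded it by 2.05 (adjusted p = 0.00137). VviTAR3 (VIT_218s0157g00090) went from 17.3, 16.6 and 16.01 to 14.2, 10.3 and 5.299 FPKM (log2 fold change -0.78), short of the size needed for a call. VviYUC6 (VIT_204s0023g01480), a flavin monooxygenase of the last step of auxin synthesis, was at 3.75, 3.85 and 4.53 FPKM at E-L 34 and 1.297, 1.59 and 4.79 FPKM at E-L 35. It was not called with replicate 3, which alone was at the E-L 34 level, and was called lower without it (-1.04). VviYUC10 stayed under 1 FPKM in all 6 libraries.

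Set beside the control, 8 of 17 AUX/IAA genes, 2 of 17 auxin response factors, 3 of 5 GH3 genes, 4 of 20 genes of auxin synthesis and transport and 3 of 16 SAUR genes were called higher after NAA at E-L 34. At E-L 35 the counts were 7, 0, 1, 2 and 4, so that all but that of the SAUR genes were smaller. Of the 17 auxin response factors 9 had an unadjusted p under 0.05 at E-L 35 in limma, beside 36.6% of all genes. Over all genes, 2.25% were called higher and 1.54% lower than the control at E-L 34, and 1.28% and 1.16% at E-L 35. These comparisons share the NAA libraries with the NAA step, so they are not independent of it.

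Gibberellin 2-beta-dioxygenases inactivate gibberellin, and one of them (VIT_219s0177g00030, chromosome 19, 5864333 to 5867937, minus strand) showed the largest called fall among genes of at least 10 FPKM, with 25.5, 30.7 and 61.1 FPKM at E-L 34 and 5.09, 5.904 and 9.05 FPKM at E-L 35 (log2 fold change -2.32, SE 0.31, adjusted p = 4.17e-06). Another (VIT_219s0140g00120) was at 54.03, 42.6 and 47.6 FPKM at E-L 34 and 10.5, 33.8 and 13.98 FPKM at E-L 35, with replicate 2 the nearest to E-L 34, and was not called without replicate 3 (-1.29) nor without replicate 1 (-1.098). CYP90B1 (VIT_204s0023g01630), an early enzyme of brassinosteroid synthesis, was at 43.97, 49.35 and 62.5 FPKM at E-L 34 and 9.54, 28.5 and 16.6 FPKM at E-L 35 (log2 fold change -1.57, adjusted p = 0.000385). No change was called in the control, at 25.02 ± 13.7 FPKM and 27.02 ± 4.46 FPKM, and the steps differed by -1.79 (adjusted p = 0.00579). In all, 4 of 10 gibberellin and brassinosteroid genes were called lower and none higher by limma (6 at an unadjusted p under 0.05), and 3 were called without replicate 3 and 3 after median-of-ratios scaling. The list is not complete, since the brassinosteroid gene CYP90A1 (VIT_213s0067g00660) is not in it and was called higher, as given under other observations. A cytokinin dehydrogenase (VIT_204s0008g01880), which breaks down cytokinin, was the 1 called gene of 12 in its list, at 9.21, 7.201 and 9.59 FPKM at E-L 34 and 2.18, 2.31 and 2.48 FPKM at E-L 35, and 2 of the 12 were called lower without replicate 3. No gene of 9 for ethylene synthesis and reception was called by limma, and 2 had an unadjusted p under 0.05.

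Heat shock genes had the most falls of any list. Of 62 tested heat shock proteins and factors 21 were called lower and none higher by limma (52 at an unadjusted p under 0.05, beside 44.1% of all genes), with a median log2 fold change of -0.92, and in 41 every E-L 35 library was below every E-L 34 library, as in 32.3% of all genes. In the control step 2 were called lower, with a median of 0.05, and in the ABA step none in either direction by limma (beside 0.0625% of all genes called in each direction, while 16 had an unadjusted p under 0.05 beside 17.9% of all genes), with a median of 0.07. The difference between the NAA and the control step was called for 11 members and that between the NAA and the ABA step for 17, in each case towards a deeper fall after NAA, beside 1.29% and 1.03% of all genes. Without replicate 3, 17 members were called lower, and 14 after median-of-ratios scaling, where the median was -0.75.

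These proteins keep others folded. The factor HSF30 (VIT_204s0008g01110, chromosome 4, 921542 to 923980, minus strand), which turns on heat shock genes, was at 25.9, 38.45 and 49.5 FPKM at E-L 34 and 5.33, 7.15 and 10.15 FPKM at E-L 35 (log2 fold change -2.18, SE 0.28, adjusted p = 2.92e-06). HSP83 (VIT_202s0025g00280, chromosome 2, 412404 to 416196, plus strand), of the HSP90 family, was at 66.9, 47.7 and 50.4 FPKM at E-L 34 and 7.93, 9.34 and 20.8 FPKM at E-L 35 (log2 fold change -2.13, SE 0.465, adjusted p = 0.000993), and its relative VIT_216s0050g01150 at 35.8, 46.1 and 50.6 FPKM at E-L 34 and 9.81, 12.8 and 12.45 FPKM at E-L 35. A heat shock cognate 70 gene (VIT_206s0004g04470, chromosome 6, 5417870 to 5421142, plus strand), the most abundant of the 4, was at 342, 281 and 264 FPKM at E-L 34 and 54.4, 69.9 and 92.95 FPKM at E-L 35 (log2 fold change -2.04, SE 0.201, adjusted p = 4.25e-08). In all 4 every E-L 35 library was far below every E-L 34 library. HSP101 (VIT_217s0000g07190), which pulls proteins out of aggregates, was at 142.5, 127 and 123 FPKM at E-L 34 and 46.45, 52.2 and 34.35 FPKM at E-L 35, and the class I small heat shock gene VIT_213s0019g03170 at 307, 334 and 425 FPKM at E-L 34 and 128, 134 and 125 FPKM at E-L 35 (both named after their values were seen). Another class I gene, VIT_213s0019g02770, was at 17.5, 38.5 and 47.3 FPKM at E-L 34 and 4.22, 10.2 and 10.5 FPKM at E-L 35, and its call was lost without E-L 34 replicate 2 (-1.768) or 3 (-1.623) or E-L 35 replicate 1 (-1.528). Small heat shock genes resemble their neighbours, and reads may be shared among them.

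Levels at E-L 34 were higher after NAA than in the other berries. HSF30 was at 4.07 ± 2.39 FPKM in the control and 5.204 ± 2.69 FPKM in ABA-treated berries at E-L 34, against 37.9 ± 11.8 FPKM after NAA. HSP83 was at 3.03 ± 1.51 FPKM and 4.12 ± 1.73 FPKM against 55.01 ± 10.4 FPKM. The summed FPKM of the list was 5706 to 7067 in the NAA libraries at E-L 34 and 3181 to 3950 at E-L 35, while all control and ABA libraries at both stages were between 1730 and 3124. Against the control, 36 of 62 members were called higher after NAA at E-L 34 and 11 at E-L 35. The part of sampling date in these differences was not tested.

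**Figure D4:**
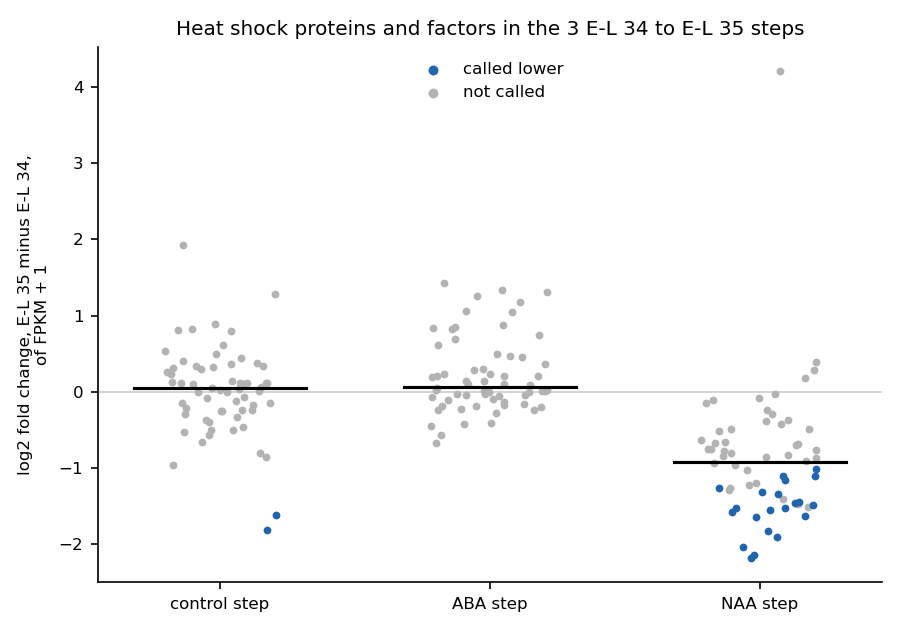
Log2 fold change (y axis, of FPKM + 1) from E-L 34 to E-L 35 for the 62 tested heat shock proteins and factors in the control, ABA and NAA steps, with one point per gene, blue where called lower, and a bar at the median. Medians are 0.05, 0.07 and -0.92, and 2, 0 and 21 genes are blue.

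Transcription factors changed in small numbers. NAC factors include several linked to ripening, and 3 of 31 were called higher and 2 lower. VviNAC60 (VIT_208s0007g07670) was at 7.05, 5.45 and 4.33 FPKM at E-L 34 and 11.3, 11.65 and 19.8 FPKM at E-L 35 (log2 fold change 1.18, adjusted p = 6.89e-05). No rise was called in the control, at 20.7 ± 3.68 FPKM and 18.7 ± 2.85 FPKM, and the difference of the steps was 1.32 (adjusted p = 0.00203). VviNAC11 (VIT_214s0108g01070) was at 1.09, 2.19 and 1.28 FPKM at E-L 34 and 5.24, 3.105 and 5.03 FPKM at E-L 35 and rose in the control also (log2 fold change 1.21). NAC29 (VIT_201s0026g02710) was at 16.15, 15.8 and 16.5 FPKM at E-L 34 and 31.6, 31.2 and 101 FPKM at E-L 35. NAC25 (VIT_217s0000g00770) fell from 9.44, 15.04 and 17.3 to 3.68, 7.23 and 3.21 FPKM, and its step was below that of the control by -2.25 on the log2 scale (adjusted p = 0.00253), a call lost without E-L 34 replicate 3 (-2.086). VviNAC13 and VviNAC33 were not called. Without replicate 3 the log2 fold changes of VviNAC60 and NAC29 were 0.94 and 0.915, under the size needed, and 1 NAC gene was called in each direction. VviNAC11 fell under it without E-L 34 replicate 1 (0.992), and NAC25 was lost without any 1 of 4 libraries (-1.227 to -1.343). VviWRKY75 (VIT_217s0000g01280) was at 7.79, 7.57 and 9.11 FPKM at E-L 34 and 15.65, 14.4 and 28.5 FPKM at E-L 35 and was the 1 called gene of 35 WRKY factors, but not without replicate 3 (log2 fold change 0.81). Of 57 AP2/ERF factors 5 were called lower and 1 higher, against 3 lower and none higher without replicate 3 and 3 lower and 1 higher after median-of-ratios scaling, the largest fall being that of VIT_202s0025g04440 with 16.2, 4.91 and 7.71 FPKM at E-L 34 and 1.47, 2.81 and 1.498 FPKM at E-L 35. None of 14 MADS-box factors was called by limma, and 8 had an unadjusted p under 0.05 beside 44.1% of all genes.

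In the remaining lists few genes were called, apart from the switch genes. Galactinol synthases, which start raffinose synthesis in stressed tissue, had 2 of 17 called lower, with 44.2, 52.95 and 78.5 FPKM at E-L 34 and 15.6, 22.2 and 16.1 FPKM at E-L 35 for galactinol synthase 1 (VIT_207s0005g01970), which was not called without E-L 34 replicate 3 (-1.396), E-L 35 replicate 1 (-1.539) or E-L 35 replicate 3 (-1.56). Without replicate 3, 1 was called lower, and after median-of-ratios scaling 1 in each direction. Lipoxygenase and jasmonate genes had 1 of 17 called in each direction, cell cycle genes 1 of 12 in each direction, terpene synthases 1 of 5 lower, and histones none of 34 by limma (16 at an unadjusted p under 0.05, beside 44.1% of all genes). Without replicate 3, and likewise after median-of-ratios scaling, the falls of the lipoxygenase and the cell cycle list were not called, and 1 histone gene was called lower without replicate 3. The switch genes of the study are a published set of genes that come on at veraison, from which the study kept those that differed from the control in these samples, so the list is not independent evidence of its direction. Of 146 tested, 54 were called higher and none lower by limma (102 at an unadjusted p under 0.05, beside 44.1% of all genes), with a median log2 fold change of 0.81, and 44 were called higher without replicate 3. In the control step 32 were called higher and 1 lower. Within the study's groups the higher calls were 12 of 17 in group a, 7 of 50 in b, 8 of 16 in c, 10 of 19 in d and 17 of 44 in e, and 11, 7, 7, 7 and 12 without replicate 3.

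Among the largest rises were also some seed-like genes. DC-8 (VIT_208s0007g04240), an embryonic protein, was at 0.223, 0.145 and 0.208 FPKM at E-L 34 and 1.81, 28.3 and 24.4 FPKM at E-L 35 and was not called without replicate 3 (2.93) nor without replicate 2 (2.825). In the control at E-L 34 DC-8 was at 9.99, 6.73 and 6.08 FPKM, where the 2S albumin was at most 0.0507 FPKM. Its level thus did not follow that of the 2S albumin there. A gene annotated as a 13S globulin (VIT_212s0034g01970) was at 10.98, 16.7 and 4.91 FPKM at E-L 34 and 158, 209.5 and 91.6 FPKM at E-L 35 (log2 fold change 3.76, SE 0.31, adjusted p = 4.16e-09), with replicate 3 the lowest of its stage, and its level did not follow the 2S albumin. This gene was not in the seed list above. It rose in the control as well (log2 fold change 2.702) and was at 2139 ± 226 FPKM after NAA at E-L 36. Its neighbour VIT_212s0034g01950 resembles it, and reads may be shared between them. Eugenol synthase (VIT_203s0088g00060), which makes a clove-scented volatile, went from 0.388, 0.83 and 0.434 to 21, 14.4 and 20.65 FPKM (log2 fold change 3.66, adjusted p = 1.48e-09), evenly in all 3 replicates.

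The remaining genes among the 10 largest falls were a MATE efflux transporter (VIT_202s0025g04420), with 42.5, 18.9 and 27.1 FPKM at E-L 34 and 3.64, 16.35 and 4.58 FPKM at E-L 35, not called without E-L 35 replicate 1 (-1.558), a glucosyltransferase (VIT_213s0019g03040), with 18.6, 10.3 and 21.8 FPKM at E-L 34 and 2.98, 4.51 and 2.703 FPKM at E-L 35, and 3 genes without an informative annotation. Of those, VIT_205s0102g00620 was lower in each library at E-L 35, with 41.2, 43.7 and 36.2 FPKM at E-L 34 and 7.93, 7.01 and 8.397 FPKM at E-L 35 (log2 fold change -2.24, adjusted p = 5.88e-08).

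The control step had 172 genes (0.977%) called higher and 303 (1.72%) lower, and the ABA step 11 (0.0625%) in each direction. Of the 218 genes called higher in the NAA step 47 were called higher in the control step and 3 lower, and of the 362 called lower 62 were called lower in it and none higher. The median control fold change of the 218 was 0.37 on the log2 scale against 1.37 in the NAA step, and that of the 362 was -0.54 against -1.19. These genes were chosen by the NAA step, so nothing is read from its own medians being the larger.

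The difference itself was called for 437 genes against the control step, 210 (1.19%) with the NAA step higher and 227 (1.29%) lower, and for 275 against the ABA step, 94 (0.534%) higher and 181 (1.03%) lower. Apart from genes already named, those of at least 10 FPKM with the NAA step furthest below the control step were an early nodulin-like gene (VIT_205s0049g00840), a basic blue protein (VIT_212s0034g01140) and a gene annotated as a glyceraldehyde phosphate dehydrogenase (VIT_201s0010g02460). Their differences were -2.63, -2.45 and -2.34. All 3 rose in the control and were not called in the NAA step, and the last difference was lost without any 1 of 9 of the 12 libraries (-2.06 to -2.393). The last was at 123 ± 23.35 FPKM and 616 ± 206 FPKM in the control against 90.8 ± 11.3 FPKM and 90.8 ± 37.7 FPKM after NAA. Against the ABA step, among genes of at least 10 FPKM, the largest called excess was that of VviTL1 (4.59, adjusted p = 0.000258), followed by eugenol synthase (3.66) and VviPG1 (3.099). The deepest called shortfalls were those of HSP83 (-3.47), the small heat shock gene VIT_213s0019g02770 (-3.205, lost without any 1 of 8 of the 12 libraries, -2.831 to -3.261) and the first gibberellin dioxygenase (-2.82).

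**Figure D5:**
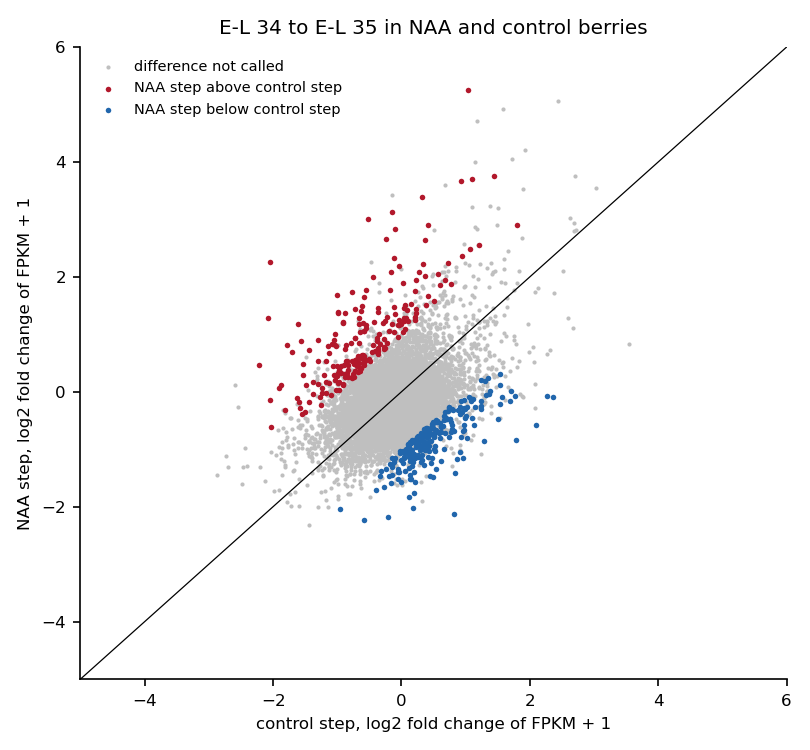
Log2 fold change (of FPKM + 1) from E-L 34 to E-L 35 in NAA-treated berries (y axis) against control berries (x axis) for 17598 genes, with the line of equal change. Red points (210) had a called difference with the NAA step higher and blue points (227) with the NAA step lower. VviTL1 is the red point at 5.25 on the y axis.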

How the data were processed

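RNA was extracted from deseeded Cabernet Sauvignon berries and sequenced as paired ends on an Illumina platform. Per the study's methods the authors mapped reads with TopHat to the CRIBI grape genome, while the labels' list of tools also names Bowtie. The counting tool and the genome version are not given in the sources used here. The deposited table holds 1 FPKM value per gene and library, computed by the authors, together with gene positions and annotations, which are printed as they stand there. The study's methods call the unit RPKM and the sample titles FPKM.

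Groups came from the sample labels, with 3 replicates each. The table numbers its columns, whereas the sample titles carry letters, so replicates are named here by the table's numbers. Same-numbered libraries of the 2 stages did not deviate together (correlations of -0.144, -0.0595 and -0.0982 for the 3 NAA pairs), and no pairing was used. The study's methods describe a randomized block design with 3 field plots per treatment, and the labels call the replicates biological, each a pool of berries. The sources used do not tie replicate letters or numbers to blocks. Same-numbered libraries therefore need not share a block, and the correlations above cannot show whether blocks mattered. The p-values rest on the spread between such pools shared over all 12 groups, and not on that of the 6 NAA pools alone.

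Differences were tested with limma 3.58.1 in R 4.3.3 (moderated by trend) on log2(FPKM + 1), since counts were not at hand for the study's own count test. The fit held all 36 libraries as 12 groups. Genes with at least 1 FPKM in at least 3 libraries were tested, p-values were adjusted by Benjamini-Hochberg over all of them, and the study's limits (adjusted p of 0.01, log2 fold change of 1) were used. Differences between steps are interaction contrasts of the same fit. The script was tested on simulated data. Tables and figures were made with Python 3.11.15, pandas 2.3.3, numpy 2.4.6 and matplotlib 3.10.9.

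Gene lists were drawn from the table's annotations, and the comparison, the lists and the genes to name were chosen with earlier results of these data known. Named genes are the 10 largest rises and falls among called genes of at least 10 FPKM without overlap, up to 3 called members per list and direction, genes the study names, and the 5 largest differences from the control and the ABA step in each direction. Others are named as chosen later. Seed genes served to check the libraries. Sequences were not used here.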

Additional observations from a re-analysis of the deposited data

Results flagged for a closer look

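Steps that differed between treatments by an interaction test are given here as values. The NAA step differed from the control step in 437 genes and from the ABA step in 275 by limma, with the NAA libraries shared by both comparisons. Values below are log2 differences, the NAA step minus the other step, and a negative value means a lower NAA step.

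Some genes of ripening proteins and wall enzymes had larger steps after NAA, and others of the same lists smaller ones. Called differences from the control step were 2 higher and 2 lower of 43 pectin-modifying enzymes and 1 and 1 of 15 expansins. They were 2 and 1 of 40 thaumatin-like, chitinase and PR-10 genes, with VviTL1 not among the 40. For XTHs and endoglucanases they were 1 and none of 38, and for cellulose synthases none and 2 of 28. Over all genes tested 1.19% were called higher and 1.29% lower, so such small counts say little about a list. VviTL1 exceeded the control step by 4.21 and the ABA step by 4.59, the class IV chitinase by 2.31 and 2.69, and PR-4 by 1.1 and 1.9. Expansin-B2 exceeded them by 2.6 and 2.11, VviPG1 by 2.89 and 3.1, pectate lyase 5 by 3.07 and 2.89, the mannanase by 3.54 and 2.93, and the XTH VIT_206s0061g00550 by 1.48 and 1.95. The pectinesterase VIT_213s0047g00230 exceeded the ABA step by 1.78. Eugenol synthase exceeded the 2 steps by 2.73 and 3.66. Values for leucoanthocyanidin reductase 1 were 1.52 and 1.01.

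Genes of hormones, carotenoids and transport differed as well. VviNCED3 exceeded the control step by 3.36 and the PP2C VIT_216s0050g02680 by 2.05, and the ninja-family gene exceeded the control and the ABA step by 4.31 and 2.35. VviTAR1 exceeded the ABA step by 2.05. For zeta-carotene desaturase the values were 1.16 and 1.13, for VviNAC60 1.32 and 1.4, and for the hexose transporter VIT_218s0122g00850 1.26 and 1.08. NAC29 exceeded the control step by 1.58, TIP1-3 by 2.32, CYP90A1 by 1.45, and the sulfate transporters 3.1 and 3.5 by 1.81 and 1.29. The tonoplast dicarboxylate transporter exceeded the ABA step by 1.88. Among seed-like genes the P24 oleosin exceeded the control step by 3.28 and the 13S globulin gene the ABA step by 1.85.

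The heat shock genes named had lower steps after NAA. Against the control and the ABA step, HSP83 differed by -2.95 and -3.47, its relative VIT_216s0050g01150 by -1.94 and -2.7, HSF30 by -1.97 and -2.64, the heat shock cognate 70 gene by -1.07 and -2.18, and VIT_213s0019g03170 by -1.29 and -1.26. VIT_213s0019g02770 differed from the ABA step by -3.21. ClpB1 differed by -1.57 and -1.49, the BAG-family gene by -1.41 and -1.85, and the polyubiquitin gene from the control step by -1.38.

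Other lower steps were those of CYP90B1 (-1.79 and -1.98), IAA13 (-1.56 and -1.28), the sucrose synthase VIT_217s0053g00700 (-1.52 and -1.27), the phenylalanine ammonia-lyase VIT_211s0016g01520 (-1.4 and -1.26) and VIT_205s0102g00620 (-1.65 and -1.72). Against the control step alone, NAC25 differed by -2.25, the early nodulin-like gene by -2.63, the basic blue protein by -2.45 and the glyceraldehyde phosphate dehydrogenase by -2.34. Against the ABA step alone, the gibberellin dioxygenase VIT_219s0177g00030 differed by -2.82, ERF026 (VIT_202s0025g04440) by -1.79, the antenna protein by -1.15, the efflux carrier VIT_208s0040g01230 by -1.22, argonaute 5 by -1.17, the RNA-dependent RNA polymerase by -1.35 and the Dicer-like gene by -1.39. Several of these calls were lost when single libraries were left out, as given with the genes above.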

How the results depend on the processing

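The NAA step had 218 genes called higher and 362 lower. With the 6 libraries fitted alone, on their own spread and with 4 residual degrees of freedom in place of 24, the counts were 25 and 19. The lower count was 127 with a floor of 5 FPKM on the mean, 692 on TPM, 182 after median-of-ratios scaling and 217 after quantile normalization, and the higher count stayed within 1.5 times in each of these. Leaving out 1 library gave 150 to 271 higher and 261 to 513 lower. The replicate block gave 220 and 361, and 436 for the difference from the control step. The differences from the control and the ABA step, 437 and 275 genes, were 284 and 160 with the floor of 5 FPKM and 44 and 20 with their libraries alone. Leaving out 1 library gave 283 to 598 and 187 to 376, with the 283 without NAA100 E-L 34 replicate 3. For the control step (475 calls) and the ABA step (22), alternatives were chosen after seeing the data. The control step gave 312 with the floor, 22 alone and 286 to 558 with 1 library left out, and the ABA step 0 alone by limma and 3 to 29. Members of the lists called, 149 in all, were 14 with the 6 libraries alone and 109 to 177 with 1 library left out. No called value of a named gene changed sign, but the balance of all calls in the NAA step did turn, from 37.6% higher to 60.2% after median-of-ratios scaling, 55.1% after quantile normalization, 60.6% with the floor of 5 FPKM and 56.8% with the 6 libraries alone. Of 150 called values of named genes, 107 lost their call with the libraries alone, 31 without E-L 35 replicate 3, 25 without E-L 34 replicate 3, 17 with a pseudocount of 0.1 and 16 after median-of-ratios scaling. Without counts, the precision that depth allows is unknown.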

Other observations

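Some called genes outside the lists shared a function, and they are given here as values, chosen after the values were seen. Transcripts of grip22 (VIT_206s0004g02560), a ripening-induced berry protein, were at 1486, 1718 and 942 FPKM at E-L 34 and 5099, 4342 and 10820 FPKM at E-L 35 (log2 fold change 2.21). Its 3 libraries at E-L 35 were all above those at E-L 34. Called genes annotated for RNA silencing are named singly, without a list or a share over such genes. Argonaute 5 (VIT_206s0061g01040) was at 60.6, 65.9 and 72.8 FPKM at E-L 34 and 24.2, 34.1 and 26.95 FPKM at E-L 35 (log2 fold change -1.21), and its step was below that of ABA-treated berries by -1.17. The RNA-dependent RNA polymerase gene VIT_204s0008g05430 (log2 fold change -1.14), the Dicer-like gene VIT_204s0023g00920 (-1.01) and an argonaute 2-like gene (VIT_210s0042g01150, -1.06) were called lower as well, but not after median-of-ratios scaling.

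A BAG-family chaperone regulator (VIT_201s0146g00150) had a log2 fold change of -1.58, ClpB1 (VIT_213s0073g00150) of -1.58 and a polyubiquitin gene (VIT_214s0036g01020) of -1.01, the last not called after median-of-ratios scaling. Among calcium-binding proteins CML41 (VIT_218s0001g11830) was called lower, with 26.85, 15.65 and 21.4 FPKM at E-L 34 and 5.83, 6.93 and 2.899 FPKM at E-L 35 as was CML19 (VIT_217s0000g01630), with a log2 fold change of -1.71. Sulfate transporters were called in both directions, with 3.1 (VIT_205s0020g03970, 1.45) and 3.5 (VIT_211s0016g04160, 1.26) higher, and 1.3 (VIT_218s0001g04910, -1.197) and 3.4 (VIT_209s0002g04780, -1.23) lower on the log2 scale, of which 1.3 was not called without E-L 35 replicate 3. The brassinosteroid gene CYP90A1 (VIT_213s0067g00660) was higher, at 13.15, 11 and 12.5 FPKM at E-L 34 and 35.1, 26.1 and 53.1 FPKM at E-L 35 (log2 fold change 1.51), whereas CYP90B1, given above, was lower.

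The gene of UDP-glucose flavonoid glucosyltransferase (UFGT, VIT_216s0039g02230), the enzyme that makes anthocyanins stable, was listed at 0 in 34 of the 36 libraries and reached at most 0.0324 FPKM. It was listed at 0 in ripe berries as well, where the other anthocyanin genes were high, and the cause was not tested.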
